A study of Canis lupus familiaris with 109 samples.

Results

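Stable intermediate positions are cytosines whose methylation fraction in dog blood lay in the middle of the scale and varied little between libraries. They were chosen from measured values, by a median fraction from 0.35 to 0.65 over 95 libraries and a standard deviation over those libraries under 0.10. A methylation fraction is the share of sequenced molecules that read as methylated at a cytosine, from 0 to 1. The rule leaves out 3 windows, on chromosome 14 from 20 to 20.3 Mb, on chromosome 18 from 45.5 to 46.8 Mb and on chromosome 2 from 35.7 to 36.6 Mb. It found 1294 members among 304191 listed positions. This is 0.428% of the 302327 positions outside the 3 windows, and 8.7% of the 14875 positions with a median in the same range. The other 13581 positions of that range, with a standard deviation of 0.10 or more, are called the wider-spread positions and serve as the comparison. Inside the 3 windows, 9, 5 and 47 further positions met both limits and are not members.

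DNA methylation is the addition of a methyl group to cytosine, in mammals mostly at CpG dinucleotides, in which the cytosines of both strands are usually in the same state. Most CpGs are either methylated or unmethylated in nearly all cells, so a middle fraction means that molecules in both states are present in the sample. Known settings of this kind are imprinted regions, where the copy from a given parent is methylated, sites that differ between the cell types of blood, heterozygous variants, and borders of unmethylated CpG islands. The values described here do not tell these settings apart.

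The samples were DNA from whole blood of domestic dogs (Canis lupus familiaris), converted with bisulfite, which changes unmethylated but not methylated cytosine, and captured under the Roche SeqCap Epi protocol before sequencing. Of 109 labelled samples, 94 are taken here as those of the main table. Their recorded description names the table of human probes, which was not used. Their ages run from 0.134 to 14.5 years (median 6.37). Of them, 30 are labelled female, 31 male, and 33 carry no sex. A further 6 are second captures of dogs of 0.384 to 15.5 years. The titles pair 5 of them with a first capture among those 94, and 1 with a first capture used only with the repeats (15.5 years). The remaining 8, of 0.455 to 9.33 years, were removed for low coverage. No treatment or breed is given. Each row of a table is a library named by a code, and no code could be matched to a label; the main table has 95 rows against 94 labelled samples, and the repeat table has 7. No library was therefore tied to a dog, an age or a sex, no groups were compared, and values are given as lowest, median and highest over libraries, with no test. Read depth is unknown, because the tables hold fractions without read counts. How much of the difference in spread between members and wider-spread positions comes from depth was not tested. Positions are the first coordinate listed for each site on CanFam3.1, uncertain by 1 bp. Genes and sequence at the positions were not analysed here.

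Members sat at the lower edge of the spread seen at their level, and were most frequent near the upper limit of the level range. The median member had a median fraction of 0.55 and a standard deviation of 0.0921, and the middle 50% of members had standard deviations from 0.0851 to 0.0966. Over the 95 libraries, the lowest value of the median member was 0.3 and the highest 0.78. In 499 members (38.6%) no library fell under 0.2 or over 0.8, against 541 of the wider-spread positions (3.98%). The share of positions that were members was lowest between 0.40 and 0.45, at 137 of 2375 positions (5.77%), and highest between 0.60 and 0.65, at 450 of 3531 (12.7%). That upper bin held 34.8% of all members. The low spread follows from the rule. Its limits are the same at all levels of the range, and why the share of members differed between levels was not tested.

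**Figure D1:**
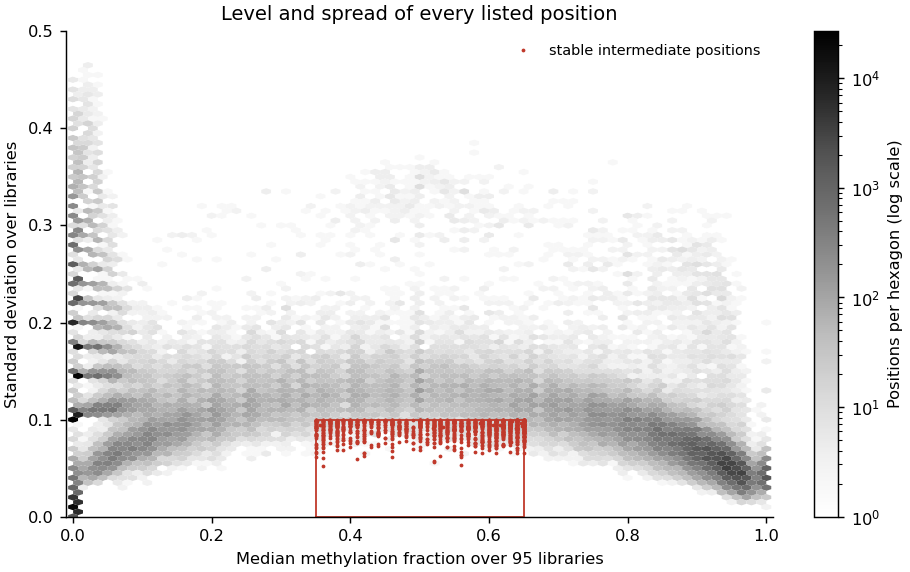
Each hexagon counts listed positions by their median methylation fraction over 95 libraries (x axis) and their standard deviation over libraries (y axis); darker hexagons hold more positions, on a log scale. Red points are the 1294 stable intermediate positions inside the outlined limits; they lie at the lower edge of the positions at their level, whose median standard deviation was 0.134 between 0.50 and 0.55.

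The limit cuts through a continuous range of standard deviations. The smallest was 0.0525, at chr3:44061226, where the median was 0.36 and the 95 libraries ran from 0.26 to 0.51. At chr15:8084162 it was 0.0533 around a median of 0.56, libraries spanned 0.41 to 0.68, and no other listed position lay within 100 bp. At chr36:19914137 it was 0.0562 around a median of 0.52, and libraries spanned 0.36 to 0.66. In these 3 members no library came near either end of the scale, and the 7 repeat libraries ran from 0.25 to 0.48, from 0.47 to 0.72 and from 0.46 to 0.6. The 3 members nearest to the limit were chr16:11665756, with a standard deviation of 0.0999941 and libraries spanning 0.23 to 0.72, chr30:4087028, with 0.0999957 and 0.29 to 0.85, and chr17:18071324, with 0.099998 and 0.31 to 0.86. The 3 positions just outside it were chr3:39217583, with 0.100013 and libraries spanning 0.2 to 0.76, chr27:10909009, with 0.10002 and 0.3 to 0.9, and chr5:81490285, with 0.100024 and 0.28 to 0.83. The values on either side of the limit were alike.

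Members stood in sparser stretches of listed positions than the table as a whole. The median member had 3 listed positions within 100 bp, itself included, against 4 for wider-spread positions and 7 for all positions outside the windows. No other listed position lay within 100 bp of 206 members (15.9%), against 12.1% of wider-spread positions and 6.24% of all. Local density was not part of the rule. Among positions standing alone, 1.09% were members, more than the 0.428% over all positions. Among positions with 16 to 31 listed positions within 100 bp, 33 of 54715 were members (0.0603%). Within the median range the shares differed less, from 11.1% of 1852 lone positions to 6.25% of 224 positions with 32 to 88 listed positions. The share of all positions in the median range was 9.81% of lone positions, 0.91% of those with 16 to 31 and 2.28% of those with 32 to 88. In that densest bin the share of members was 0.142%, above that at 16 to 31. However, the 14 members of that bin all lay on chromosome 9, in the 100 kb from 10300000.

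Members occurred on all 38 autosomes. Chromosome 29 had the highest share, with 26 members among 2802 positions (0.928%), or 14.8% of its positions in the median range. Chromosome 20 had the lowest, with 40 among 14799 (0.27%). Chromosome 37 had the lowest share within the median range, 11 of 230 (4.78%). Distance from the last listed position of a chromosome went with no steady change in the share, which was 0.425% within 1 Mb of it, 0.518% from 1 to 5 Mb, 0.403% from 5 to 20 Mb and 0.428% beyond. In windows of 100 kb, 982 of 14541 windows with a listed position held a member, and 798 of those held only 1.

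Most members had no other member nearby. Chained over gaps of up to 100 bp, the 1294 members formed 957 single positions (74%), 103 chains of 2, and 29 clusters of 3 or more. The clusters held 131 members, or 10.1%. The median distance to the nearest member was 173732 bp, and 337 members (26%) had another within 100 bp. The wider-spread positions, of which there are more, stood alone in 42.7% and fell into clusters in 34.6%; because a denser set chains more readily, these shares are not on an equal footing. Members in clusters, in chains of 2 and alone had median standard deviations of 0.0911, 0.0914 and 0.0923, and median levels of 0.53, 0.55 and 0.55.

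Close to a member, other members were far more frequent than in the table as a whole. At 1 bp, 16 of 149 listed positions (10.7%) were members. Of 438 listed positions 2 to 10 bp from a member, 106 (24.2%) were members, against the 0.428% of all positions. At 11 to 50 bp the share of members was 16.1%. Between 51 and 100 bp it was 9.96%, between 101 and 200 bp 5.13%, and between 501 and 2000 bp 2.54%. Around wider-spread positions, members made up 4.14% of neighbours 1 bp away, 1.26% of those 2 to 10 bp away and 2.48% of those 501 to 2000 bp away. Nearby sites can be read from the same molecules and share their depth, and the part of this in the shared low spread was not tested.

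Levels around members changed with distance, but not steadily. At 2 to 10 bp, 47.5% of listed neighbours of members were in the median range from 0.35 to 0.65, 7.99% were under 0.2 and 11% over 0.8. At 51 to 100 bp these shares were 29.7%, 18% and 25.8%. At 201 to 500 bp they were 38.3%, 31.3% and 12.6%, and from 501 to 2000 bp 27.8%, 43.7% and 9.29%. A neighbour is counted for each member it lies near, so dense stretches weigh more. In the 500 bp after the cluster at chr9:10350426-10350735 alone, 154 of 175 listed positions were in the median range. The part of such stretches in the 38.3% was not tested. The share under 0.2 thus rose with each step from 2 bp on, while that over 0.8 was highest at 51 to 100 bp. The same neighbours of wider-spread positions were in the median range more often, at 56.6% for 2 to 10 bp and 40.9% for 51 to 100 bp. From 501 to 2000 bp 27.4% of them were in the range.

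**Figure D2:**
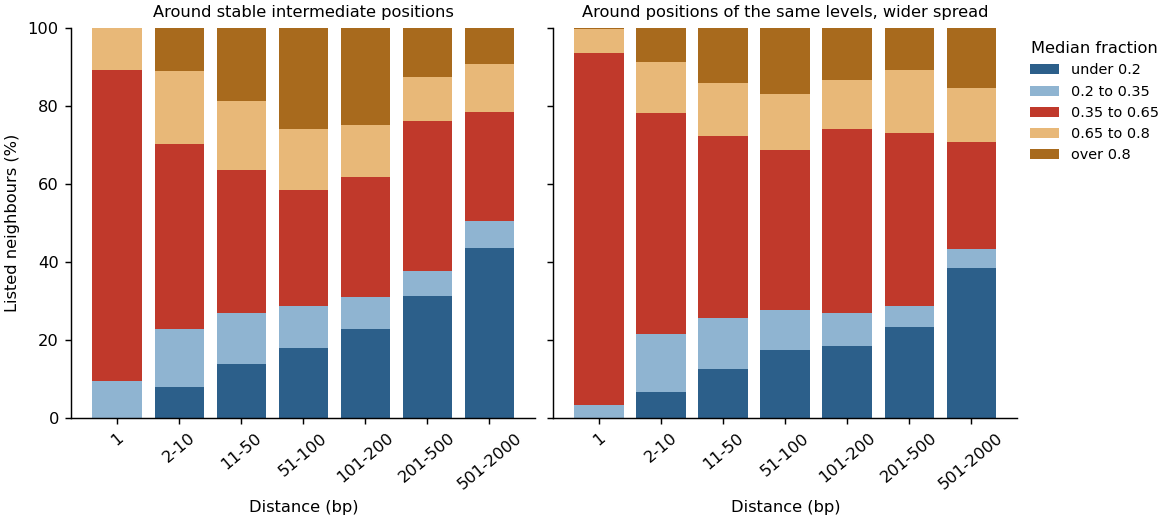
Stacked bars give the percentage of listed neighbours in 5 classes of median methylation fraction, by distance in bp from stable intermediate positions (left) and from wider-spread positions of the same levels (right). Around members the middle class is 47.5% at 2 to 10 bp. It is 29.7% from 51 to 100 bp, where 25.8% are over 0.8, and 38.3% from 201 to 500 bp, where 12.6% are over 0.8. Neighbours are counted for each member they lie near, so dense stretches weigh more.

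Few of the members that could be read on both sides lay directly between an unmethylated and a methylated listed position. The nearest listed position that was no member could be read on both sides, within 500 bp, for 713 of the 1294 members. In 265 of these (37.2%) both sides lay between 0.2 and 0.8, and in 294 (41.2%) only 1 side did. In 90 (12.6%) both sides were over 0.8, and in 39 (5.47%) both were under 0.2. In 25 members (3.51%) one side was under 0.2 and the other over 0.8. For 7379 wider-spread positions the shares were 57.4%, 31.5%, 6%, 3.32% and 1.76%. There too only members were passed over. Wider-spread positions could thus have their own kind as sides, while members could not. These shares are therefore not on an equal footing, and the part of this in their difference was not tested. Only the nearest position on each side was read, so a gradual border with intermediate positions next to the member is not counted. At chr9:10370095, a cluster start, the position directly before had a median of 0.54. The 20 listed positions before that cluster had a median of 0.25 and the 20 after it 0.86. How many members lay at such gradual borders was not tested.

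Members up to 500 bp apart moved together across libraries more closely than those on different chromosomes, with no steady change by distance. The correlation between 2 members over the 95 libraries had a median of 0.177 for the 8 pairs 1 bp apart and 0.542 for the 53 pairs 2 to 10 bp apart. It was 0.426 for 171 pairs at 11 to 50 bp, 0.439 for 123 pairs at 51 to 100 bp, and 0.337 for 74 pairs at 101 to 200 bp. For 72 pairs at 201 to 500 bp it was 0.461, and for 159 pairs at 501 to 2000 bp 0.137. Many of the 72 pairs lay in 1 stretch of chromosome 17, from 61096485 to 61097432, where the averages of 2 clusters correlated at 0.718. The part of this stretch in the 0.461 was not tested. Between members on different chromosomes (808802 pairs) the median was 0.0119, with 5% of pairs under -0.193 and 5% over 0.217. These correlations describe points that share libraries and, when close, molecules. For wider-spread positions the medians were 0.672 at 2 to 10 bp and 0.515 at 51 to 100 bp.

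Where the main table lists the opposite strand of the same CpG, which it does for few members, the level of that strand was mostly alike and its spread larger. Positions 1 bp apart are taken as the cytosines of both strands, which are read from different molecules. Of 145 members with a single listed position 1 bp away, 116 (80%) had a partner in the median range. The medians of the partners differed by 0.02 for the median member, and by up to 0.06 for 90% of them. However, 16 partners (11%) were members themselves, and the median standard deviation of the partners was 0.118. The members were chosen for a low spread and the partners were not, so the larger spread of the partners is no separate result. Among the wider-spread positions, 90.5% of 2325 partners were in the median range and 4.3% were members. The median standard deviation of those partners was 0.131.

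The largest cluster lay on chromosome 17. It held 11 members in 246 bp, chr17:61096752-61096997, and all 20 listed positions of that span were in the median range. Averaged over its members, the lowest library had 0.301, the median 0.505 and the highest 0.687. Single members had medians from 0.37 to 0.59, and neighbours could sit at different levels. The position chr17:61096914 had a median of 0.38, with libraries spanning 0.21 to 0.58, and chr17:61096916 a median of 0.53, with libraries spanning 0.34 to 0.76. From first to last, the 11 members had medians of 0.47, 0.54, 0.37, 0.59, 0.53, 0.38, 0.53, 0.59, 0.53, 0.44 and 0.55, so the level changed up and down along the stretch. The median correlation between its members across libraries was 0.64. A cluster of 3 members began 267 bp before it, and the averages of the 2 clusters correlated at 0.718. With 1 further position, 15 members lay between 61096485 and 61097432. A run of 32 consecutive listed positions in the median range covered 555 bp here, from 61096524 to 61097078, and 26 of them had a standard deviation under 0.12. The cluster's positions were not in the repeat table.

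A cluster of the same size lay on chromosome 24, in a stretch where nearly every listed position was intermediate. Its 11 members spanned 162 bp, chr24:43606016-43606177, and 12 of 12 listed positions in the span were in the median range. From first to last, the members had medians of 0.56, 0.56, 0.44, 0.53, 0.6, 0.58, 0.52, 0.55, 0.59, 0.56 and 0.51, closer together than on chromosome 17. The lowest library averaged 0.387, the median 0.553 and the highest 0.731. In the repeat table the 7 libraries gave 0.52, 0.547, 0.484, 0.492, 0.498, 0.585 and 0.555 (codes CHYB6 10, 1, 5, 6, 7, 8 and Pilot 1), all near the middle. Of the 17 positions that the repeat table lists in the 500 bp before the cluster, 17 had a median from 0.35 to 0.65. In the 100 kb from 43600000, 107 of 114 listed positions (93.9%) were in the median range, the highest share among 518 windows that held a member and at least 20 positions, where the median was 6.74%. Of these 107, 13 were members and the median standard deviation was 0.128. The remaining 2 were chr24:43637592, with a median of 0.56, and chr24:43637617, with 0.59.

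Chromosome 9 held 3 of the 6 largest clusters by number of members in the 100 kb from 10300000. With 29 members among 533 listed positions, 289 of them in the median range, that window held more members than any other. Outside the 3 windows left out by the rule, 8.7% of all positions in the median range were members. The 3 clusters differed in level and surroundings. The cluster of 8 members at chr9:10370095-10370185 had a median library of 0.569, from 0.44 to 0.74, and repeat libraries from 0.5025 to 0.719. The 20 listed positions before it had a median of 0.25 and the 20 after it a median of 0.86. Within its span, 8 of 19 listed positions were in the median range, and the 19 had a median of 0.76. Of its members, 6 are pairs 1 bp apart, so that it holds 5 CpGs when both strands are counted once, fewer than the clusters of 7 and of 6, which hold no such pair. The cluster of 7 at chr9:10348548-10348724 was the lowest of the 6, at 0.39, with libraries from 0.281 to 0.549 and repeat libraries from 0.327 to 0.452. Of the 21 listed positions in its span, 7 were in the median range, and the 21 had a median of 0.3. Where a position was listed 1 bp after a member of this cluster, its median was lower and outside the range, from 0.26 to 0.33. The cluster of 6 at chr9:10350426-10350735 was the highest, at 0.635, with libraries from 0.47 to 0.923. The latter was SCE_CF_Pilot_11_S11, more than 0.25 from the median, and the next highest library had 0.782. Repeat libraries of this cluster ran from 0.498 to 0.753, and most of them were over 0.65. Within its span the members were 6 of 88 listed positions, and 26 of the 88 were in the median range. The averages of the clusters of 8 and of 7 correlated at -0.0829 across libraries, those of the clusters of 8 and of 6 at -0.186, and those of the clusters of 7 and of 6, whose starts are 1878 bp apart, at 0.291.

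On chromosome 7, 7 members lay in 100 bp at chr7:80948889-80948988, with a median library of 0.536 and libraries from 0.387 to 0.679. The listed position 45 bp before it had a median of 0.1 and that 96 bp before it 0.75. The 13 listed positions in the 500 bp after it had a median of 0.21, and none was in the median range. A cluster of 3 began 893 bp after the start of this one, at a median of 0.473, and the averages of both clusters correlated at 0.514 across libraries.

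**Figure D3:**
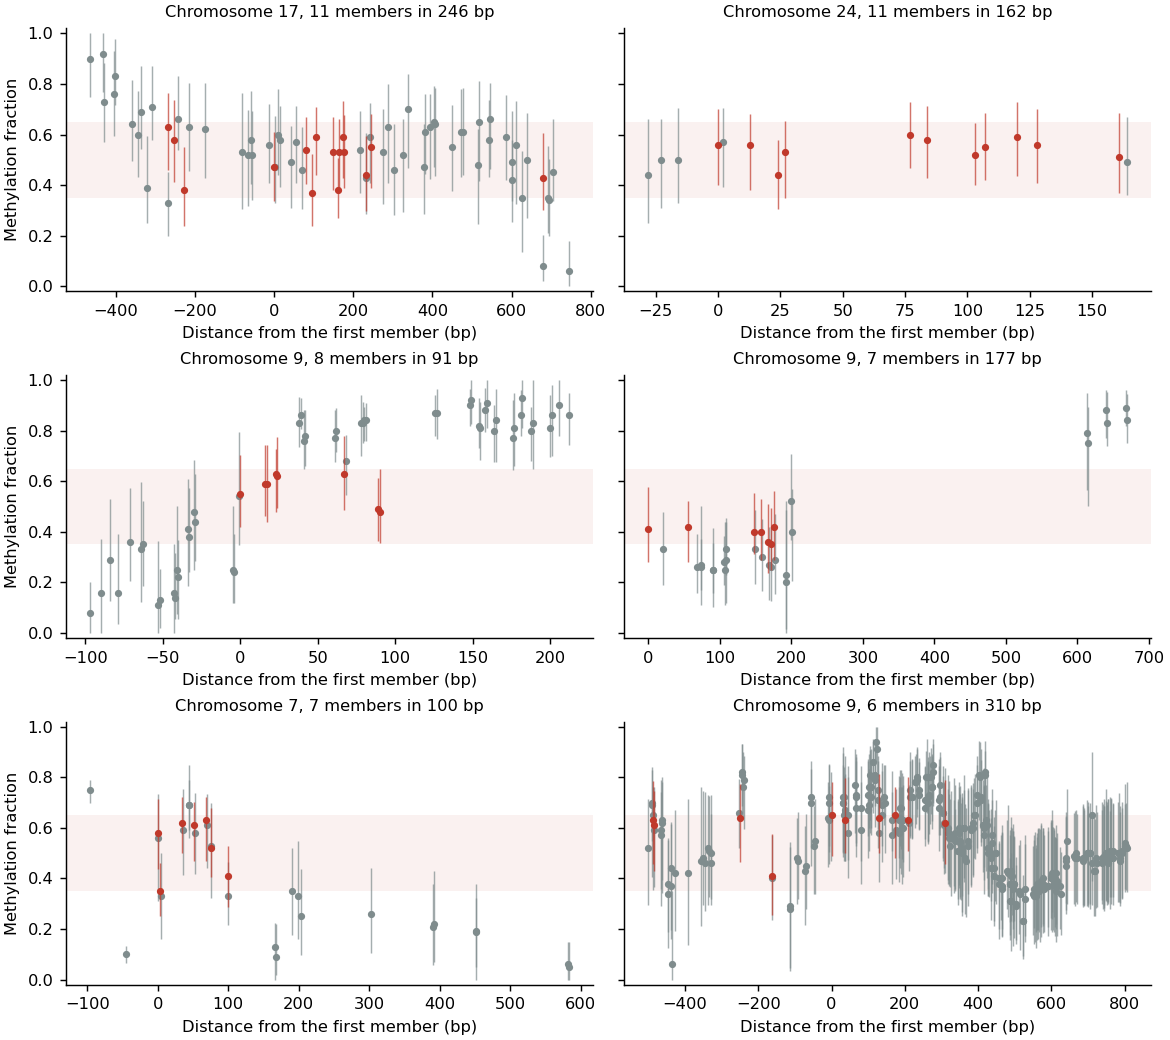
Methylation fraction of every listed position from 500 bp before to 500 bp after the 6 largest clusters, against distance in bp from the first member. Points are medians over 95 libraries and lines run from the 5th to the 95th percentile of libraries; red marks stable intermediate positions, grey the other listed positions, and the shaded band is 0.35 to 0.65. On chromosomes 17 and 24 all grey points within the span of the cluster lie in the band. After the cluster on chromosome 7 the grey points fall to a median of 0.21. At 10370095 on chromosome 9, 8 of 19 points within the span lie in the band, and the points after it have a median of 0.86.

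The clusters of 5 members were short. On chromosome 35 (24358323 to 24358457) the median library was 0.48, from 0.338 to 0.602, and the members' correlation was low, at a median of 0.169. On chromosome 29 (15834005 to 15834073) it was 0.558, from 0.398 to 0.786, and on chromosome 9 (20263152 to 20263200) it was 0.57, from 0.384 to 0.716. All 3 were bounded on at least 1 side by methylated positions: the 13 listed positions after the first had a median of 0.9, the 7 after the second 0.94, and the 3 before the third 0.87. On the other side the medians were 0.3 over 3 listed positions, 0.525 over 18 and 0.56 over 7. In the 500 bp after the third, the repeat table lists 67 positions, with a median of 0. The 3 clusters averaged 0.348 to 0.618, 0.508 to 0.72 and 0.508 to 0.662 in the repeat table. The cluster of 4 on chromosome 32 (24889728 to 24889901) had a median library of 0.44, from 0.24 to 0.613, and 12 of the 13 listed positions in its span were in the median range.

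The next 10 clusters by size, with 3 or 4 members each, had median libraries from 0.42 to 0.57, and single libraries from 0.235 to 0.765. Of these, the 4 members on chromosome 22 (9466579 to 9466643) stood in a long run of intermediate positions: 62 consecutive listed positions over 520 bp, from 9466434 to 9466953, had medians in the range. The standard deviations of these 62 ran from 0.0978 to 0.162, and the 4 members were those under 0.10. The cluster's average ran from 0.292 to 0.723 over libraries (the latter in L9_A9, more than 0.25 from the median), with a median of 0.463, and from 0.39 to 0.59 over repeat libraries. By contrast, the 4 members on chromosome 27 (18616843 to 18616958) lay at a step: the 3 listed positions before had a median of 0.9 and the 46 after a median of 0. Their median library was 0.445, from 0.235 to 0.588. The 4 members on chromosome 27 at 1258315 to 1258371 stood in low surroundings, with 15 positions before at a median of 0.05 and 3 after at 0.2, and had a median library of 0.57. The others in this group were on chromosome 2 (84104577 to 84104650 and 71722446 to 71722537), chromosome 29 (17819106 to 17819136), chromosome 26 (8519338 to 8519500), chromosome 6 (22308949 to 22309067), chromosome 7 (80949782 to 80949877) and chromosome 28 (38429422 to 38429516). The first of these on chromosome 2 has 4 members in 3 CpGs when both strands are counted once. Clusters on different chromosomes had correlations of their averages from -0.402 to 0.454 over 391 pairs, with a median of 0.0452.

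The mean level of the members varied little between libraries. The mean over the 1294 members was 0.5 in the lowest library, 0.53 in the median library and 0.556 in the highest. Over the wider-spread positions it was 0.469, 0.507 and 0.54, lower than over the members in 92 of 95 libraries. These libraries chose the members, whose medians lie higher (0.55 against 0.51), so the offset describes that same difference. Why the medians lie higher was not tested. Between 64.4% and 84.5% of members were at 0.35 to 0.65 in a library, with a median of 73.5%. The library coded L7_A4 had the lowest share and L8_A5 the highest, in both sets; this too is a description of the libraries that chose the members. By code prefix, the median of the library means ran from 0.522 (prefix L8) to 0.537 (L2), and the ranges of all 10 prefixes overlapped.

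**Figure D4:**
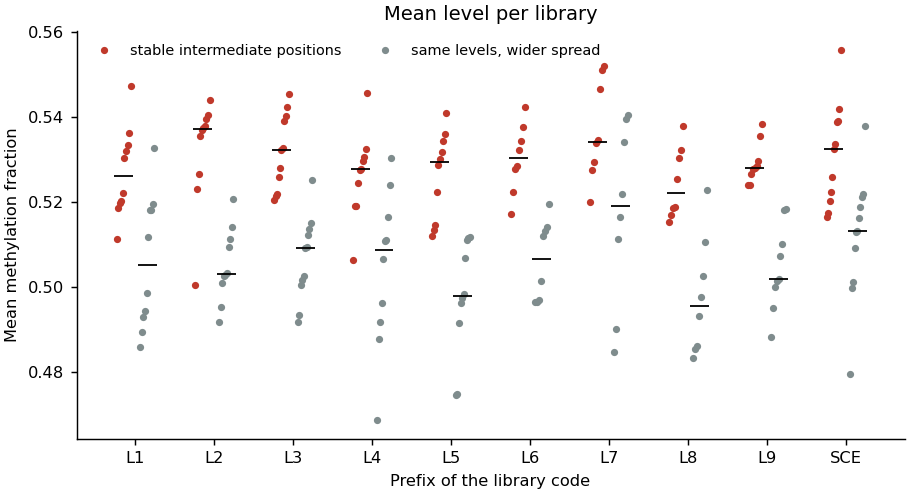
Mean methylation fraction per library over stable intermediate positions (red) and wider-spread positions (grey), by prefix of the library code; points are single libraries in order of value and black lines are medians. Library means over the stable positions lie between 0.5 and 0.556, and the prefixes overlap.

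In the repeat table most members were again intermediate. Its values were not used to choose the members. By the titles, 5 of its 6 dogs have a first capture among the 94 samples taken as those of the main table. It is thus taken to measure mostly the same dogs again and is no independent sample of dogs. It lists 1130 of the 1294 members (87.3%). At 0.35 to 0.65 lay 68.4% of them in the library CHYB6 10, 73.9% in CHYB6 1, 69.4% in CHYB6 5, 75.7% in CHYB6 6, 70.5% in CHYB6 7, 73.9% in CHYB6 8 and 76.6% in Pilot 1. Of the 7 codes, 5 carry a number that a Pilot code of the main table also carries, and the other 2 carry the number 1, which no Pilot code of the main table has. Which code belongs to which dog is not given in the sources used here. Wider-spread positions reached 59.5% to 67.8%, and all positions outside the windows 4.93% to 5.76%. The members' share was above that of the wider-spread positions in 7 of 7 libraries, by 3.23 to 12.2 percentage points. Members alone, in chains of 2 and in clusters had median shares of 73.2%, 73.6% and 73.2%.

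**Figure D5:**
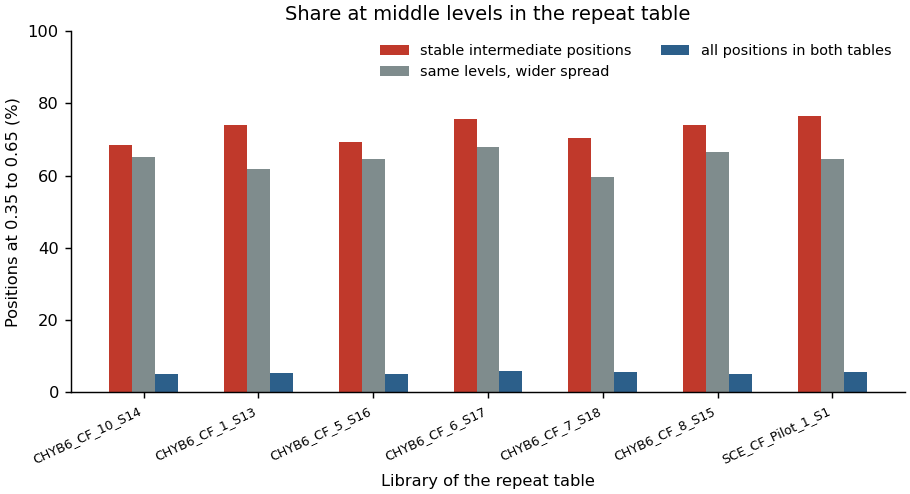
Percentage of positions with a methylation fraction of 0.35 to 0.65 in each of the 7 libraries of the repeat table, for stable intermediate positions (red), wider-spread positions of the same levels (grey) and all positions in both tables outside the 3 windows (blue). Red bars stand between 68.4% and 76.6%, above the grey bars in every library, and blue bars stay at or under 5.76%.

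Spread over the 7 repeat libraries was also lower at the members. The median member had a standard deviation of 0.0832 over them, and the median wider-spread position 0.119. In 1005 of the 1128 members with a value in all 7 libraries (89.1%), no library fell under 0.2 or over 0.8, against 69.3% of wider-spread positions. A member's value in a repeat library differed from its median in the main table by 0.06 for the median member in each library, and by up to 0.17 to 0.19 for 95% of them. For wider-spread positions these differences were 0.08 to 0.11, and 0.29 to 0.35. Libraries whose CHYB6 and Pilot codes carry the same number, 6 pairs in all, differed at the median member by 0.06 to 0.08.

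In single libraries of the repeat table, the level of the opposite strand of members went with whether the main table lists that strand. The shares here are per library, while those given above for the main table compare medians over 95 libraries. They are therefore not on an equal footing. For the 137 members whose partner is in the main table, 54% to 70.1% of partners were at 0.35 to 0.65 in a library and 2.19% to 10.9% were under 0.2 or over 0.8. For the 881 whose partner is only in the repeat table, these shares were 32% to 48.1% and 18.3% to 35.2%. Within a library, member and partner differed by a median of 0.07 to 0.11 where the partner was listed and 0.13 to 0.19 where it was not. The wider-spread positions showed the same order, with 57.2% to 67.1% of listed partners and 36.2% to 51.6% of unlisted partners at 0.35 to 0.65. What sets which strand the main table lists is not given in the sources used here, and its part in these differences was not tested.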

How the data were processed

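The authors deposited a methylation fraction for each position and library, and no read counts. Per the submitters' processing notes, CanFam3.1, Bowtie2 2.1.0, Bismark 0.14.3 and Trim Galore were used, in roles that are not given. No coverage minimum could be set here. The main table has 95 libraries; 0.781% of its cells, and 0.512% of member cells, have more than 2 decimals and are treated as filled in, by a method not given in the sources used here. The repeat table has 7 libraries at 1812277 positions and 2.68% empty cells. The table of human probes gives no dog positions and was not used.

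Medians, standard deviations (n-1), chains of members and neighbour levels were computed with Python 3.11.15 and NumPy 2.4.6, drawn with Matplotlib 3.10.9 and tested on simulated data. Clusters are chains with gaps of up to 100 bp and at least 3 members. The 20 clusters with the most members are named, the 10 largest in full, besides the 3 members with the smallest standard deviations and the 3 positions on either side of the limit; windows of 100 kb and single members within clusters were named after their values were seen. Members, lists and measures were chosen with earlier results of these data known. The alternatives changed the limits, gaps, ranges and libraries used. No test was run, since the library codes match no label and unmatched libraries are not replicates of a group.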

Additional observations from a re-analysis of the deposited data

How the results depend on the processing

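The number of members depends on the limits of the rule. Against 1294, it was 723 with a median range of 0.40 to 0.60, 2273 with 0.30 to 0.70, 171 with a standard deviation limit of 0.08 and 4948 with 0.12. Leaving out the libraries of each code prefix in turn gave 1166 to 1501, and 1127 to 1211 of the members stayed. Taking means gave 1258, leaving out filled-in cells 1264, leaving out the library L1_A7 1354 and L4_A7 1259; counting opposite strands once gave 1286 and keeping the 3 windows 1355. Without the library SCE_CF_Pilot_4_S4, in which 24.3% of member cells are filled in, there were 1296, an alternative chosen after seeing the data. The share of members in clusters, 10.1%, was 7.42% with gaps of up to 50 bp, 5.02% with at least 5 members a cluster and 18.1% with a limit of 0.12; it was between 8.7% and 11.5% under the other alternatives, including one without the chromosome 9 window, chosen after seeing the data. The share of members at middle levels in the repeat libraries, a median of 73.9%, was 87.1% with a range of 0.30 to 0.70, as a wider range gives, and 73.8% over positions with a value in every library. The share of members at a step between neighbours was 3.51%, and 2.82% with neighbours within 200 bp. Depth is unknown, so its effect on the spread could not be examined.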

Other observations

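Large departures from the members' medians were unevenly spread over libraries. In the median library 7 of 1294 members lay more than 0.25 from their median, and in 12 libraries none did. The library L1_A7 had 81 such members (6.26%), and L8_A15 and L7_A4 had 52 each (4.02%). In L1_A7, 11.4% of member cells are filled in, in L8_A15 0.696% and in L7_A4 0.232%.

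The library SCE_CF_Pilot_11_S11 was an extreme of several clusters, as were others. It was the lowest of 95 in 3 of 29 clusters and the highest in 1. L1_A7 and L7_A16 were each the lowest in 1 and the highest in 2, and L5_A12 the lowest in 2 and the highest in 1. SCE_CF_Pilot_11_S11 averaged 0.301 in the chromosome 17 cluster of 11 members, where the next library had 0.349. In the cluster of 3 beside it, it averaged 0.277, where the next had 0.353. The averages of these 2 clusters correlated at 0.718 across libraries. In the cluster of 6 members on chromosome 9 it averaged 0.923, where the next highest library had 0.782 and the median was 0.635. Over all members its mean was 0.522, within the range of the other libraries, and 0.232% of its member cells are filled in.

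Filled-in cells lay closer to the position's median than measured cells did. Over the members, 630 filled-in cells differed from their position's median by 0.0253 at the median, and 122300 cells with 2 decimals by 0.06. Most of the filled-in cells come from SCE_CF_Pilot_4_S4 and L1_A7, in which 24.3% and 11.4% of member cells are filled in. Both kinds of cell were thus not compared within the same libraries.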
